A study of Mus musculus with 6 samples.

Results

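S100 proteins are small calcium-binding proteins of the EF-hand type, and the genes of the members listed here lie on mouse chromosome 3. The 8 genes listed for this description were S100a1, S100a4, S100a6, S100a8, S100a9, S100a10, S100a11 and S100a13, and their probe sets were taken wherever the platform's annotation gave exactly 1 gene symbol. By that rule 7 of the 8 genes were read, on 10 of the 34945 probe sets with a single symbol. S100a11 had no probe set of its own symbol alone and is not analysed here. S100a1 had 2 probe sets, S100a10 had 3 and the other 5 genes had 1 each. Probe sets whose names end in s or x, as those of S100a8 and the brightest of S100a1 and S100a10 do, can by the platform's naming match transcripts of further genes.

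Most S100 proteins form dimers that open a binding face for a partner protein when calcium enters the cell. S100a8 and S100a9 pair with each other to form calprotectin, which fills the cytoplasm of neutrophils and early myeloid cells, binds zinc and manganese, and signals through Toll-like receptor 4 and the receptor Ager when released. The other members are found in many cell types, where they bind annexins, myosin, ion channels and growth factors.

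Common myeloid progenitors (CMP) are marrow cells from which granulocyte-monocyte and megakaryocyte-erythrocyte progenitors arise. CMP of C57BL6 mouse bone marrow were loaded with H2-DCFDA, which turns fluorescent once reactive oxygen species (ROS) oxidise it, and the low-ROS and high-ROS fractions, each 15% to 20% of all CMP per the labels, were sorted. No genotype or drug treatment separates the groups, which per the labels differ by the ROS gate alone. RNA of 3 low-ROS and 3 high-ROS samples was amplified and read on 6 one-colour arrays, and the series asks what ROS do as CMP turn into megakaryocyte-erythrocyte progenitors. Whether a group's 3 samples are 3 mice, 3 sorts or aliquots is not stated in the labels, and p-values cover the spread among these samples alone, part of which may be technical.

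The arrays' median signals lay between 40.4 and 42.5. The Gapdh control ratio (3' over 5' signal), a measure of RNA integrity and labelling, was lower on the low-ROS arrays (3.19, 2.84 and 2.54 for replicates 1, 2 and 3) than on high-ROS replicates 1 (3.57) and 3 (4.53), while high-ROS replicate 2 (2.997) lay below low-ROS replicate 1. The gate genes Kit, Cd34, Fcgr3 and Fcgr2b were read on all arrays, with a summed signal of 3342 to 3520 in low-ROS and 3266 to 3684 in high-ROS CMP. Markers of late neutrophils were also bright, at a sum of 40100 to 43323 over 10 measured genes of 12 listed in low-ROS and 36937 to 39397 in high-ROS CMP. Those of B cells summed to 2241 to 2762 and 2081 to 2579 over 5 measured genes of 6 listed. Larger shifts stood in other marker lists, and all lists were chosen with earlier results of these data known. The megakaryocyte list (7 of 8 genes measured) had a summed signal of 2530 to 2694 in low-ROS and 1044 to 1532 in high-ROS CMP. Its median log2 fold change was -0.73, and 1 gene, F2r, passed the adjusted threshold, as did 0.055% of all genes. In low-ROS and high-ROS CMP the means were 1156 and 335 for F2r and 1107 and 666 for Pf4. The groups of Gp1bb, Gp9 and Vwf overlapped, with log2 fold changes of 0.09, -0.19 and -0.15. The stem and multipotent progenitor list summed to 950.0 to 1270 and 645 to 879 (7 of 8, median -0.68, 0 past it). With a pseudocount of 64 these medians were -0.42 and -0.34. The monocyte and macrophage list had 5 of 10 genes with all high-ROS arrays above all low-ROS arrays, as for 8.04% of all genes. It had 1 the other way, as for 5.32%. Its median was 0.18, or 0.33 with the Gapdh ratio as a covariate, with 0 past the threshold and sums of 14496 to 15117 and 14632 to 17907. The erythroid list (7 of 8 measured) summed to 9156 to 9369 and 7782 to 8535, with a median of -0.21 that was -0.08 with the Gapdh ratio as a covariate. Sums overlapped for T and NK cells (4 of 6 measured, 1220 to 1300 and 1208 to 1351) and for eosinophils, basophils and mast cells (6 of 6, 12841 to 14371 and 10969 to 13280). The part of these other cells in the S100 results was not tested. Fewer cells of a type and less RNA per cell cannot be told apart in such bulk samples. The RefSeq promoter table holds 7 of the 8 listed genes (GRCm38.p6), all but S100a10.

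The promoters of the calprotectin pair are shown because both genes gave some of the brightest signals on every array. Each is the 250 bases before the RefSeq start, 5' to 3' on the gene's own strand, with matches to 5 short motifs in capitals. S100a8 lies at chr3:90668821-90669070 on the plus strand and S100a9 at chr3:90695722-90695971 on the minus strand.
S100a8: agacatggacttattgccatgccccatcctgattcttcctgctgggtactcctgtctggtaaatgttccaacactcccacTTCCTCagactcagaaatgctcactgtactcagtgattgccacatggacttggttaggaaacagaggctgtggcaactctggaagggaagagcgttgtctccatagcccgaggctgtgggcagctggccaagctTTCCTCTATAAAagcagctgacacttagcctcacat
S100a9: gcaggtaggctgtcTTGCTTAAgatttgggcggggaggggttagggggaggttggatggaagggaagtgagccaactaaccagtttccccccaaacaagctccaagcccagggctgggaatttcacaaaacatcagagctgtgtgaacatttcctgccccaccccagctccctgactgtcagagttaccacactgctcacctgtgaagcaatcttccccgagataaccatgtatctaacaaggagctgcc

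The motifs were searched on both strands of the 300-base windows, which run to 50 bases after the start. They were the TATA box (TATAAA), a C/EBP motif (TTGCNNAA), an AP-1 motif (TGANTCA), the core of the antioxidant response element (TGACNNNGC) and a PU.1-type Ets motif (GAGGAA). In S100a8 the TATA box begins at base -30 and directly follows a reverse-strand Ets match at -36, and another Ets match begins at -170. The S100a9 window holds a C/EBP match at -236, and a TATA box at base 1 after the RefSeq start that is outside the stretch shown. S100a4 has a TATA box at -31. Of all 32851 windows, 13.6% hold the TATA box, 10.8% the C/EBP motif, 7.81% the AP-1 motif, 12.4% the antioxidant core and 28.3% the Ets motif. Of the 7 windows of the listed genes, 3 hold the TATA box, 3 the Ets motif, 1 the C/EBP motif, 1 the AP-1 motif (S100a11) and 0 the antioxidant core. A match says only that these letters are present in the window.

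S100a1 and S100a13 are neighbours that are read in opposite directions, with their RefSeq starts 105 bases apart. The 104 bases between the starts, at chr3:90514331-90514434 on the plus strand, are shown because both genes start from them; they hold none of the 5 motifs.
Between S100a1 and S100a13: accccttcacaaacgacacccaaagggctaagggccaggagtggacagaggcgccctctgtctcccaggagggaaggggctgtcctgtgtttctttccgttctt

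None of the S100 genes passed the test between the fractions. At an adjusted p under 0.05 (limma, Benjamini-Hochberg over 18193 genes), 0 of 7 passed, where 0.055% of all genes tested did. At an unadjusted p under 0.05, 1 of 7 passed, S100a1, against 7.81% of all genes. All 7 had a lower mean on the log2 scale in high-ROS CMP and their median log2 fold change was -0.09, where 46.0% of all genes were lower and the median of all genes was 0.02. With quantile normalization S100a1, S100a4, S100a6 and S100a10 were lower and S100a13 was higher, while S100a8 and S100a9 did not differ to the digits kept. That method gives every array the same value at a given rank. S100a8 and S100a9 held nearly constant ranks at the top of every array, so it could show little difference for them. Without low-ROS replicate 2, 6 of the 7 were lower. The count was 4 with the arrays scaled to a common trimmed mean, and also 4 without low-ROS replicate 3 or high-ROS replicate 1. In a fit that held the Gapdh ratio as a covariate it was 3. The median of the 7 was -0.04 without low-ROS replicate 1 and 0.0031 with that covariate.

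**Figure D1:**
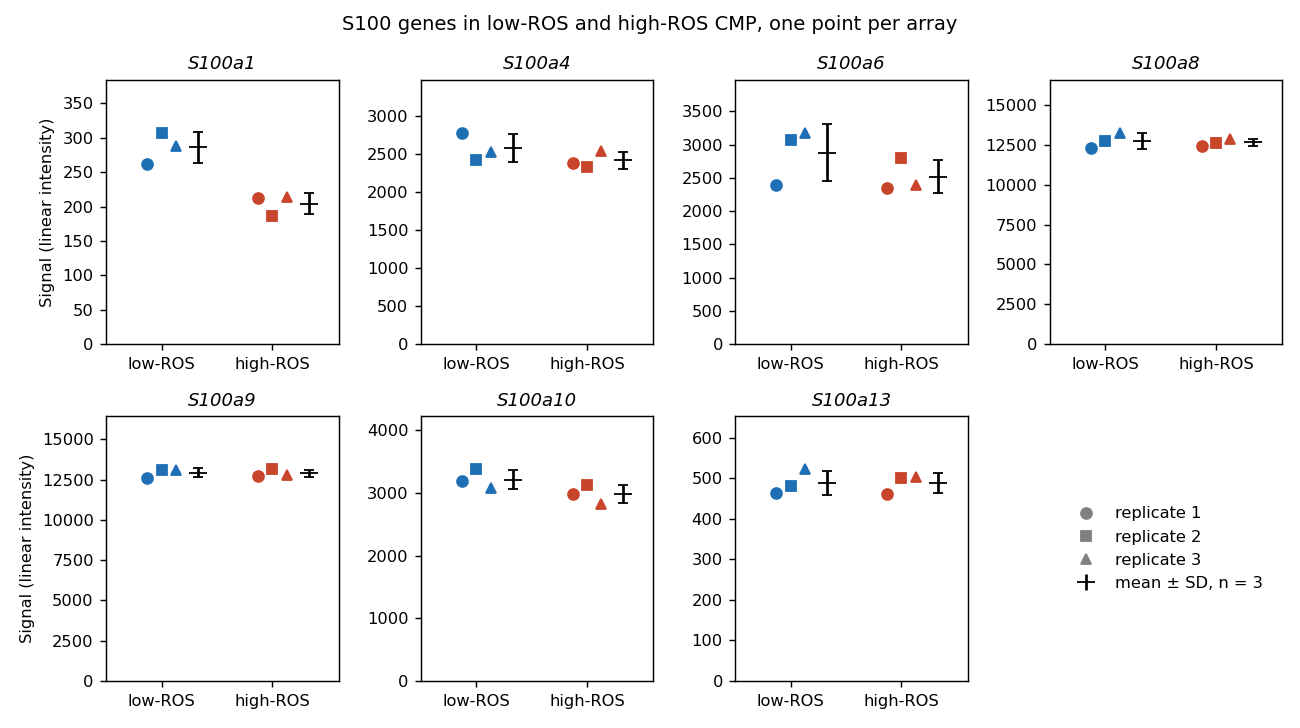
Deposited signal (linear intensity, from 0) of the brightest probe set of each of the 7 S100 genes on the 3 low-ROS (blue) and 3 high-ROS (red) arrays, with the replicate as the symbol and mean ± SD (n = 3) in black. Only S100a1 has groups that do not overlap, with 262 to 308 in low-ROS and 187 to 214 in high-ROS CMP.

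S100a8 and S100a9, the calprotectin subunits, were near the top of the array's range in both fractions. S100a8 (Entrez Gene 20201, probe set 1419394_s_at) read 12273, 12708 and 13258 on the low-ROS arrays (replicates 1 to 3, the order used throughout) and 12421, 12638 and 12871 on the high-ROS arrays. The high-ROS values all lay inside the low-ROS range. The groups differed by -0.01 on the log2 scale (SE 0.0580, limma adjusted p = 0.981), with a 95% interval of the high-ROS over low-ROS fold from 0.908 to 1.08.

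S100a9 (Entrez Gene 20202, probe set 1448756_at) read 12595, 13107 and 13131 in low-ROS and 12725, 13145 and 12813 in high-ROS CMP. The groups overlapped almost wholly. Their log2 fold change was -0.01 (SE 0.0556, limma adjusted p = 0.989), with an interval of the fold from 0.915 to 1.08. The coefficient of variation over the 6 arrays was 2.74% for S100a8 and 1.85% for S100a9. Between 3 and 5 of 45101 probe sets were brighter than S100a8 on an array, and between 2 and 4 brighter than S100a9, where the highest deposited signal was 15899. Whether signals this close to the top still follow the amount of RNA in proportion was not tested.

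The other markers of late neutrophils, the cells best known for calprotectin, had lower means in high-ROS CMP in 10 of 10 measured genes; their median log2 fold change was -0.14. None passed the adjusted test (0 of 10), 1 had an unadjusted p under 0.05 and 4 had groups that did not overlap, all lower, against 5.32% of all genes. With the Gapdh ratio as a covariate 6 of the 10 were lower (median -0.04), and with quantile normalization, without low-ROS replicate 3 or without high-ROS replicate 2 it was 9. Cd177, a neutrophil surface protein, read 2419, 2739 and 2929 in low-ROS and 2328, 2281 and 1466 in high-ROS CMP. Ngp, a granule protein, read 7430, 7583 and 7826 against 7268, 7340 and 7185. The list's summed signal was higher on every low-ROS array than on any high-ROS array, while the S100a8 and S100a9 signals overlapped; whether the pair differs from the list in its change was not tested.

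Genes of earlier granulocytic cells had a median of the other sign. Their median log2 fold change was 0.09, with 5 of 7 measured genes higher, where 54.0% of all genes were, and 0 past the adjusted threshold. It was 0.03 without high-ROS replicate 3, 0.05 without low-ROS replicate 1, 0.15 without high-ROS replicate 1, 0.14 with quantile normalization and 0.06 with array weights. The lower genes were Gfi1 and Fcnb, with log2 fold changes of -0.08 and -0.18. Mpo, Elane and Ms4a3 were higher with groups that overlapped. Ctsg, the cathepsin G gene, had the largest difference of the 7. It read 2275, 2519 and 2711 in low-ROS and 2950, 3464 and 2885 in high-ROS CMP. Its log2 fold change was 0.31 with an adjusted p of 0.568 (limma). Its groups did not overlap, high-ROS above low-ROS, nor did those of Prtn3 (log2 fold change 0.16, limma adjusted p = 0.688). These were 2 of the 7 genes, where 8.04% of all genes had such groups. The other way it was 0 of 7, against 5.32% of all genes. The list's summed signal was 17636 to 18885 in low-ROS and 19049 to 20082 in high-ROS CMP.

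S100a1, which in muscle binds the sarcoplasmic calcium pump and the ryanodine receptor, had the largest difference of the 7 genes. Its brighter probe set (Entrez Gene 20193, probe set 1419814_s_at) read 262, 308 and 289 in low-ROS and 213, 187 and 214 in high-ROS CMP. All 3 high-ROS arrays were below all 3 low-ROS arrays, as for 5.32% of all genes. The means were 286 ± 22.8 (SD, n = 3) and 205 ± 15.6 (SD, n = 3). This is 1.37-fold lower, a log2 fold change of -0.45 (SE 0.159) with an interval of the high-ROS over low-ROS fold from 0.572 to 0.931, and it did not pass over all genes (unadjusted p = 0.0153, limma adjusted p = 0.568).

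The dimmer probe set of S100a1 gave the same size with a far wider spread. Probe set 1417421_at read 66.9, 76.5 and 121 in low-ROS and 35.1, 93.2 and 57.0 in high-ROS CMP. High-ROS replicate 2 lay above low-ROS replicates 1 and 2, so the groups overlapped. Tested per probe set, its log2 fold change was -0.46 (SE 0.306, limma adjusted p = 0.759), and that of the brighter probe set had an adjusted p of 0.647. In that fit 0 of the 10 S100 probe sets passed, where 0.02% of all probe sets tested did. In high-ROS replicate 2 the dimmer probe set was at its highest of that group and the brighter at its lowest.

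S100a13, which takes part in the release of Fgf1 by a route that bypasses the secretory pathway, starts next to S100a1 and did not show its difference. Probe set 1418704_at (Entrez Gene 20196) read 464, 482 and 522 in low-ROS and 461, 501 and 504 in high-ROS CMP. The groups overlapped on nearly their whole range. Their log2 fold change was -0.0013 (SE 0.129, limma adjusted p = 0.999), and the interval of the fold ran from 0.820 to 1.22. The interval of S100a1, from 0.572 to 0.931, overlaps it, and the difference between the 2 genes was not tested.

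**Figure D2:**
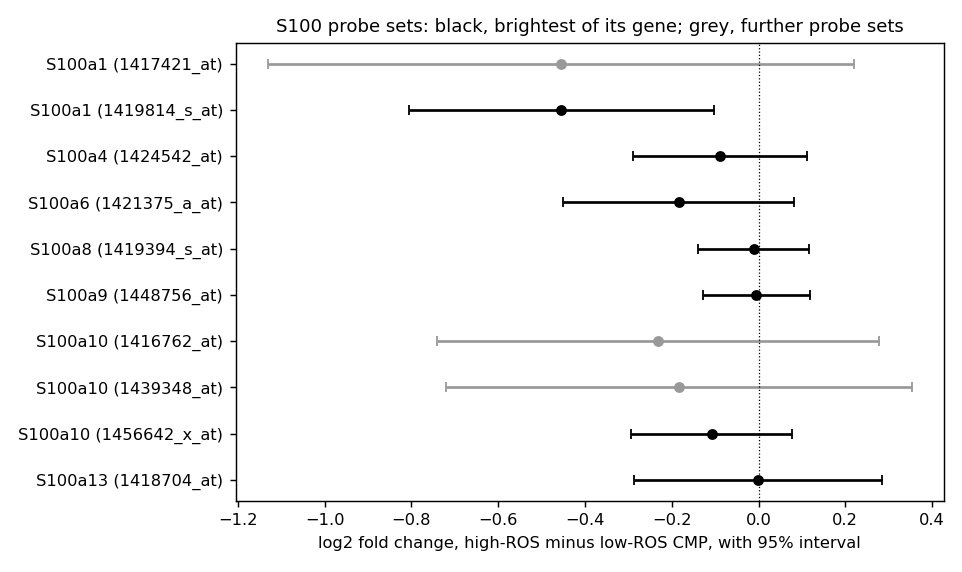
Log2 fold change of high-ROS minus low-ROS CMP for the 10 S100 probe sets, with 95% intervals from limma; black marks the brightest probe set of a gene and grey the further ones. The interval of 1419814_s_at of S100a1, from -0.80 to -0.10, lies below 0, and those of the other 9 probe sets include 0.

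S100a4, which binds non-muscle myosin and is linked to cell movement, was read by 1 probe set (1424542_at, Entrez Gene 20198). Its signal was 2785, 2427 and 2526 in low-ROS and 2387, 2332 and 2544 in high-ROS CMP. Low-ROS replicate 1 stood above the rest and the groups overlapped. They differed by a log2 fold change of -0.09 (SE 0.0909, limma adjusted p = 0.843), with an interval of the fold from 0.818 to 1.08. It was -0.03 without low-ROS replicate 1 and -0.18 with the Gapdh covariate. Its partner Myh9, a non-muscle myosin heavy chain, had 5464 ± 104 (SD, n = 3) in low-ROS and 4994 ± 570 (SD, n = 3) in high-ROS CMP, and its log2 fold change was -0.14 (SE 0.0894).

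S100a6, or calcyclin, which binds annexins and the ubiquitin ligase adaptor Cacybp, varied between arrays more than it did between groups. Probe set 1421375_a_at (Entrez Gene 20200) read 2386, 3063 and 3179 in low-ROS and 2353, 2802 and 2396 in high-ROS CMP. The arrays fell into a high and a low level that each held both fractions. The fractions differed by a log2 fold change of -0.18 (SE 0.121, limma adjusted p = 0.738), with an interval of the fold from 0.731 to 1.06. Without low-ROS replicate 1 it was -0.31 (unadjusted p = 0.0184, limma adjusted p = 0.765), and without low-ROS replicate 3 it was -0.11. The 3 arrays with the lowest S100a6 signal, low-ROS replicate 1 and high-ROS replicates 1 and 3, were the 3 with the highest Gapdh ratios. With the log2 of that ratio as a covariate, the log2 fold change of S100a6 was 0.02 (SE 0.125, limma adjusted p = 0.992).

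**Figure D3:**
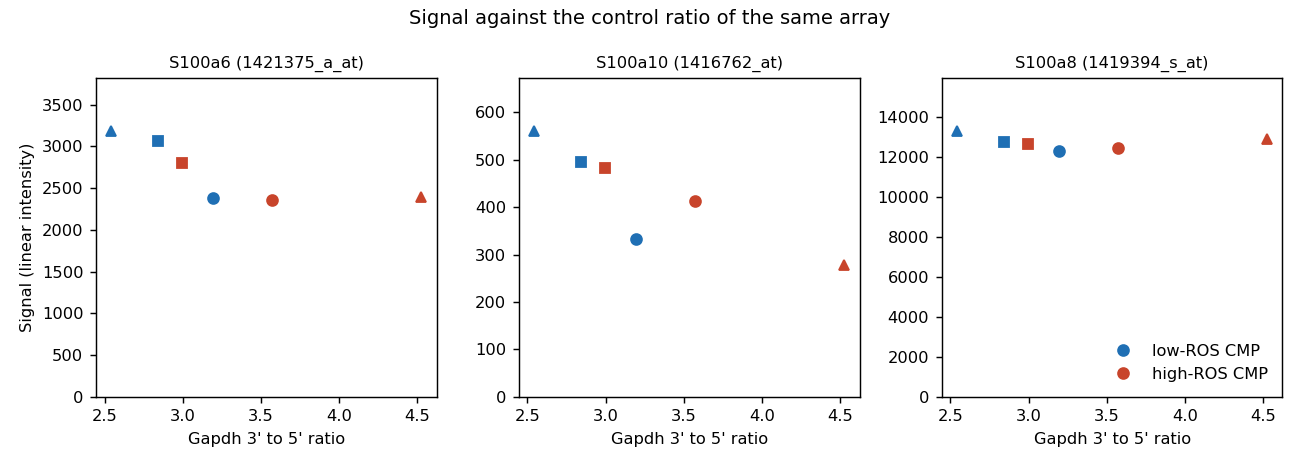
Signal (linear intensity, from 0) of 1 probe set each of S100a6, S100a10 and S100a8 against the Gapdh 3' to 5' ratio of the same array, for 3 low-ROS (blue) and 3 high-ROS (red) arrays; circles, squares and triangles are replicates 1, 2 and 3. S100a6 and probe set 1416762_at of S100a10, which is not the brightest of that gene, were lower on the 3 arrays with ratios of 3.19, 3.57 and 4.53 than on the other 3, and S100a8 stayed between 12273 and 13258. S100a9, which is not drawn, was also lower on those 3 arrays (12595 to 12813) than on the other 3 (13107 to 13145).

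S100a10, also called p11, is the member that has lost calcium control and stays bound to Anxa2, with which it holds plasminogen activators and channels at the cell surface. Its brightest probe set (1456642_x_at, Entrez Gene 20194) read 3188, 3375 and 3071 in low-ROS and 2984, 3124 and 2827 in high-ROS CMP. Only high-ROS replicate 2 reached into the low-ROS range. Its log2 fold change was -0.11 (SE 0.0838, limma adjusted p = 0.778), with an interval of the fold from 0.816 to 1.05. It was -0.07 without low-ROS replicate 2 or high-ROS replicate 3 and with quantile normalization, -0.06 with the Gapdh covariate and -0.17 when the gene's probe sets were averaged.

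The other two probe sets of S100a10 were dimmer and spread more. Probe set 1416762_at read 332, 495 and 560 in low-ROS and 413, 483 and 279 in high-ROS CMP, and its log2 fold change was -0.23 (SE 0.231, limma adjusted p = 0.845). Like S100a6, it was lowest on the 3 arrays with the highest Gapdh ratios, which the brightest probe set was not. The same 3 arrays were also lowest for S100a9, the dimmer probe set of S100a1 and probe set 1439348_at of S100a10. They were not for S100a4, S100a8, S100a13 and the brighter probe set of S100a1. Probe set 1439348_at read 31.0, 38.6 and 38.5 against 20.0, 46.1 and 26.6, which is near the array medians, with a log2 fold change of -0.18 (SE 0.243, limma adjusted p = 0.891). The coefficient of variation over the 6 arrays was 24.9% and 28.2% for these, against 6.0% for the brightest. Anxa2 read 2217, 1777 and 1614 in low-ROS and 1804, 1576 and 2004 in high-ROS CMP, with a log2 fold change of -0.05 (SE 0.133).

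**Figure D4:**
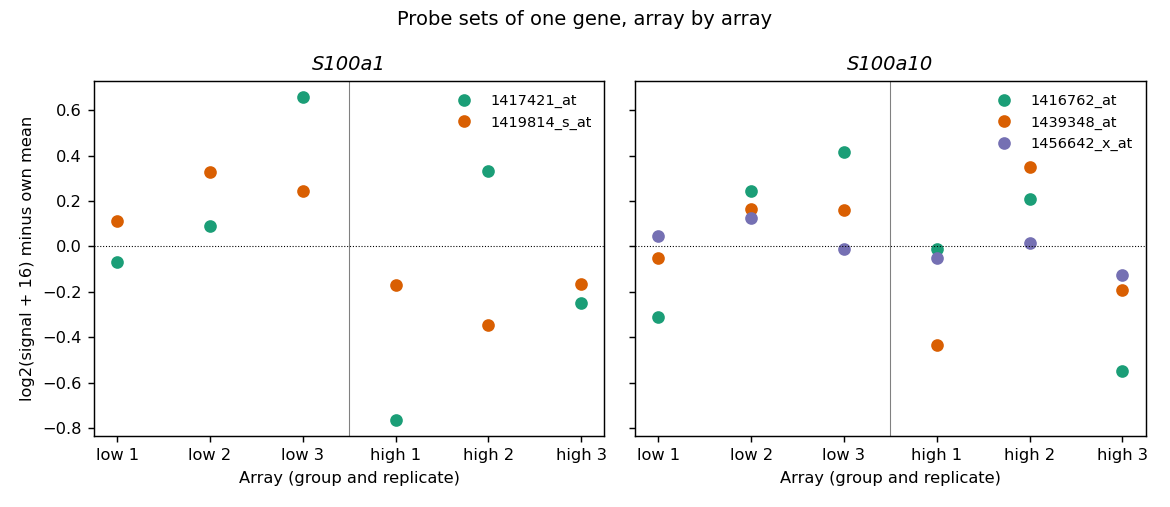
log2(signal + 16) of each probe set of S100a1 (left) and S100a10 (right) minus its own mean, for the 6 arrays named by group and replicate. The 2 probe sets of S100a1 part most in high-ROS replicate 2, where they read 93.2 and 187, and the brightest probe set of S100a10 stays closest to 0.

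Further S100 genes outside the 8 were near or below the array medians. Of the 9 looked up, 7 had a probe set of a single symbol, on 10 probe sets, and S100a7a and S100z are not analysed here. S100a3, S100a5, S100a14, S100b and S100g had signals between 1.0 and 18.0 on all 6 arrays, and S100a16 between 9.57 and 31.6. S100pbp, which encodes a binding partner of an S100 protein and is no S100 gene itself, had 302 ± 70.4 (SD, n = 3) in low-ROS and 246 ± 39.6 (SD, n = 3) in high-ROS CMP on its brighter probe set. All of these probe sets had groups that overlapped.

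Receptors, binding partners and regulators of S100 proteins gave no call. Of 35 listed genes 33 were measured, 0 passed over all genes, 13 were higher and 20 lower, and the median log2 fold change was -0.05 (-0.08 to -0.0066 leaving out single arrays, the latter without high-ROS replicate 3, and -0.0022 with quantile normalization). The receptor gene Tlr4 had the smallest p and the only unadjusted p under 0.05: it read 188, 103 and 165 in low-ROS and 86.1, 98.5 and 96.6 in high-ROS CMP. Every high-ROS array was below every low-ROS array, as for 5.32% of all genes (log2 fold change -0.58, SE 0.231, limma adjusted p = 0.598). Cd14, Ly96 and Myd88 of the same list had log2 fold changes of 0.15, 0.11 and 0.10, with groups that overlapped. Ager, the other calprotectin receptor named above, read 65.4 ± 16.3 (SD, n = 3) and 64.4 ± 8.44 (SD, n = 3), close to the array medians.

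The next genes by p were Tgm2, a transglutaminase, with a log2 fold change of 0.29 (SE 0.134), Anxa5, an annexin that binds phosphatidylserine, with -0.28 (SE 0.134), and Plgrkt, a plasminogen receptor, with -0.32 (SE 0.183). Their groups overlapped, and their adjusted p lay between 0.638 and 0.702 (limma). The annexins Anxa1 and Anxa6 had log2 fold changes of -0.02 and 0.24, and Cacybp had 0.07.

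Other EF-hand calcium sensors gave no call either. Of 26 listed genes 21 were measured, 0 passed over all genes, 12 were higher and 9 lower, and the median log2 fold change was 0.03 (-0.01 without low-ROS replicate 3 and 0.0094 to 0.0530 without each of the others). Sri, the calcium sensor sorcin, read 1655, 2043 and 1730 in low-ROS and 1402, 1650 and 996 in high-ROS CMP. Its groups did not overlap (log2 fold change -0.44, SE 0.166, limma adjusted p = 0.587), with low-ROS replicate 1 and high-ROS replicate 2 almost equal.

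In all, 2 of the 21 sensors had groups that did not overlap and were lower in high-ROS CMP, and 1 was higher, where 5.32% and 8.04% of all genes were. The other lower one was Sdf4, a calcium-binding protein of the Golgi, at 1287 ± 79.4 (SD, n = 3) in low-ROS and 1097 ± 147 (SD, n = 3) in high-ROS CMP. Nucb1, the higher one, a calcium-binding protein named after its values were seen, read 358, 378 and 361 in low-ROS and 409, 442 and 415 in high-ROS CMP (log2 fold change 0.20, SE 0.133, limma adjusted p = 0.743). Lcp1, an actin-bundling protein of leukocytes, read 3960, 4045 and 4096 against 3850, 3981 and 2394, so that high-ROS replicate 3 alone was low. Rcn2, a calcium-binding protein of the endoplasmic reticulum, had a log2 fold change of 0.24 (SE 0.160). High-ROS replicate 3, where the Gapdh ratio was highest, also gave the lowest signal for Sri, Sdf4 and Cd177, and the part of this ratio in those values was not tested gene by gene.

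The genes most like an S100 gene in their pattern were found by the root mean square difference over the 6 arrays, after each gene's mean on the log2 scale was removed, among 9096 genes above the median signal. For S100a1 (brighter probe set) they were Pigp, Tgif2 and Prkar2b, at 0.07, 0.09 and 0.09, where the SD of S100a1 itself was 0.27. For S100a6 they were Piga, Arhgap18 and Ncoa7, at 0.04, 0.04 and 0.05, against an SD of 0.19. For S100a4 they were Slc3a2, Hemgn and Pon2, at 0.03, 0.03 and 0.04, against an SD of 0.09. With 6 arrays and this many genes, close patterns are a description only.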

How the data were processed

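Total RNA of sorted CMP was amplified and biotin-labelled (NuGEN Ovation, per the labels' protocols). The deposited values are linear intensities, 1 for each probe set on each array; the summary and scaling behind them are not given in the sources used here, and they carry no detection call. Each array column was matched to its sample by the labels. Of 45101 probe sets, 34945 had 1 gene symbol, 932 several, 64 were controls and 9160 are unnamed here; 34741 were found in RefSeq (GRCm38.p6) by Entrez identifier.

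The probe set with the highest mean log2 signal stood for each of 18193 genes. The 3 high-ROS arrays were set against the 3 low-ROS arrays on log2(signal + 16), without further normalization, with limma 3.58.1 in R 4.3.3 (mean-variance trend, 2-sided, Benjamini-Hochberg, threshold 0.05); a fold change on this scale understates that of dim genes. A second fit tested each probe set. An exact permutation test of 3 against 3 cannot go below p = 0.1, so none is given. The number of arrays limits precision. On simulated data, 57.2% of genes shifted by 1 on the log2 scale and 94.2% of those shifted by 2 were called, and 3.92% of calls were false. The labels do not say that a replicate number marks a shared mouse, sort or day, so the numbers were not taken to pair the samples. Same-numbered arrays correlated at 0.119, 0.0966 and 0.00275 in their deviations from group means, and differently numbered ones at -0.126 to 0.0606. Whether the samples are paired cannot be told from these values.

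The members, lists and alternatives were chosen with earlier results of these data known. Named were all members, further S100 genes, the 4 partner and 4 sensor genes of smallest p, and likeness to the 3 members of largest SD. The neutrophil, granulocyte and megakaryocyte genes were named after their values were seen. So were Myh9, Nucb1, Anxa1, Anxa2, Anxa6, Ager, Cd14, Ly96, Myd88 and Cacybp. Figures used Python 3.11.15 and matplotlib 3.10.9.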

Additional observations from a re-analysis of the deposited data

How the results depend on the processing

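The count of S100 genes past the adjusted threshold was 0 in every alternative fit, 1 at an unadjusted p under 0.05 (1 of the probe sets, and 2 of the partner and sensor genes). Of 112 alternative values of the 7 genes, 0 passed (smallest adjusted p 0.339), and 15 changed sign, with sizes up to 0.0454. With the Gapdh covariate these were S100a6 (0.0158), S100a8 (0.0031), S100a9 (0.0253) and S100a13 (0.0317); with trimmed mean scaling S100a8 (0.0130), S100a9 (0.0188) and S100a13 (0.0222); with quantile normalization S100a13 (0.0138). Leaving out single arrays, S100a8 ranged from -0.0381 to 0.0176, S100a9 from -0.0250 to 0.0050, S100a13 from -0.0376 to 0.0454, S100a6 from -0.31 to -0.11, S100a4 from -0.13 to -0.03, and the median of the 7 genes from -0.10 to -0.04. S100a1 stayed between -0.51 and -0.38 over all alternatives. The 10 genes called in all became 0 without a mean-variance trend (limma; 1351 at an unadjusted p under 0.05), 16 among genes above the median, 30 with array weights, 4 with a pseudocount of 64, 3 with the Gapdh covariate, 17 at an adjusted p under 0.1, 1421 at an unadjusted p under 0.05, and 1 to 6 leaving out 1 array; the cause was not tested. With the replicate block 4 genes were called, 0 of them S100 genes, and the block changed no S100 call.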
